A study of Mus musculus with 14 samples.

Results

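Metallothioneins and a core of antioxidant enzymes were followed in RNA of C57Bl6 mouse fetuses whose mothers had been given ethanol or a matched sugar diet late in pregnancy. The set held 10 genes, Mt1, Mt2, Sod1, Sod2, Gpx1, Txn1, Hmox1, Gclc, Gclm and Slc7a11, chosen by name, and every probe that the array's annotation gives to exactly 1 of these symbols was taken. That gave 9 genes with 1 probe each, of 15094 genes named on an array of 21582 probes, and no probe carried the symbol Mt2. Of the 9, 8 had enough values to be tested, and Gclc is described by its values alone. The probes are named by the sequence records they were made to, NM_013602 for Mt1, M35725 for Sod1, NM_013671 for Sod2, NM_008160 for Gpx1, NM_011660 for Txn1, NM_010442 for Hmox1, U85498 for Gclc, NM_008129 for Gclm and NM_011990 for Slc7a11.

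The 14 arrays were two-colour. In the alcohol-fed group (7 arrays) pregnant mice were exposed to ethanol at about 180 to 200 mg/dl from gestational day 15 to 18 (4 days in the protocol, 5 in the titles), and ethanol-exposed fetuses were taken on day 19. In the pair-fed group (7 arrays) the mothers received maltose dextrin over the same days. Both groups had free access to food and water until day 14. Each array set 1 such sample (Cy5) beside the same pool (Cy3), total RNA of 7 animals fed ad libitum, labelled a weight matched control. The labels state neither fetal tissue nor litter nor sex, and ratios carry no levels, so no tissue could be checked against its markers. Whether arrays of a group share a litter is likewise unstated, and p-values cover the spread between arrays, which may be technical.

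Values are log2 ratios, read as sample over pool, with each array's median set to 0. The direction is likely, since the labels put the sample in the first channel, but no source states it, and each sign below would turn if it ran the other way. Array medians before centring ran from -0.377 to 0.615 in the alcohol-fed group and from -0.62 to 0.68 in the pair-fed group. Above or below the pool means above or below 0 after centring, and a deposited value can have the other sign. Txn1 on pair-fed array 2, for example, was deposited at 0.434 and stood at -0.246 after centring. A value of exactly 0, or the table's highest value of 16.61, was read as a placeholder and left out (555 to 1708 probes per alcohol-fed array and 718 to 3155 per pair-fed array). Pairs of arrays had r from 0.257 to 0.692 over probes (a description, as probes are no replicates).

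Metallothioneins are small cysteine-rich proteins that bind zinc and copper, and their genes are induced by metals, by glucocorticoids and by oxidative stress through the metal-sensing factor MTF-1 and other regulators. The enzymes form a chain: superoxide dismutases turn superoxide into hydrogen peroxide, and glutathione peroxidase and the thioredoxin system remove the peroxide. Glutathione itself is built from cysteine, which enters cells as cystine through Slc7a11, by glutamate-cysteine ligase, a dimer of Gclc and Gclm. Several of these genes are textbook targets of the transcription factor Nrf2, which binds antioxidant response elements.

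The 250 bases before the gene start are shown for Mt1, which had the highest difference between the diets among the genes, and for the 4 genes whose ratio to the pool passed the test below. They are RefSeq sequence of build GRCm38.p6, matched by symbol (8 of the 10 genes, all but Hmox1 and Gclc), written 5′ to 3′ on the gene's strand. Capitals mark matches on either strand to the core letters of 3 motifs: TGACNNNGC, the antioxidant response element; TGCACNC or TGCGCNC, the metal response element bound by MTF-1; and TGATGNAA, the amino acid response element bound by ATF4.
Mt1, chr8:94178839-94179088, plus strand: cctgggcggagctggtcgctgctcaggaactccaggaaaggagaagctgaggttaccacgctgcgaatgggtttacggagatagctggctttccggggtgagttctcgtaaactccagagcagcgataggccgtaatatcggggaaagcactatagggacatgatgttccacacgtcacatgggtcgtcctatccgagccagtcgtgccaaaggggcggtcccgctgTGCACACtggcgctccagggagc
Sod1, chr16:90220512-90220761, plus strand: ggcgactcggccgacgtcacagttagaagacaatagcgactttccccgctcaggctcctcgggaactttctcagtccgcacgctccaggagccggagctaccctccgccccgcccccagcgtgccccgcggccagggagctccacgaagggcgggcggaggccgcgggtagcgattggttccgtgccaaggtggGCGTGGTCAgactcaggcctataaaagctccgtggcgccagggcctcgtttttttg
Gpx1, chr9:108338830-108339079, plus strand: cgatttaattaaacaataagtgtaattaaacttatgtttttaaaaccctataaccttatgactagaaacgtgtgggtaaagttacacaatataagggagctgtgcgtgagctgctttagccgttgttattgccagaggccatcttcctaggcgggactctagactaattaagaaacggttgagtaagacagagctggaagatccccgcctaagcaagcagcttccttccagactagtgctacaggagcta
Txn1, chr4:57956412-57956661, minus strand: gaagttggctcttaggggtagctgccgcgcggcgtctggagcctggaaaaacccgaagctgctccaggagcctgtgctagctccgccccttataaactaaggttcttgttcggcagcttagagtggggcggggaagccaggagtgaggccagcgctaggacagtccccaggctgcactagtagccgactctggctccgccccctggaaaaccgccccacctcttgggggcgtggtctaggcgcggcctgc
Slc7a11, chr3:50443614-50443863, minus strand: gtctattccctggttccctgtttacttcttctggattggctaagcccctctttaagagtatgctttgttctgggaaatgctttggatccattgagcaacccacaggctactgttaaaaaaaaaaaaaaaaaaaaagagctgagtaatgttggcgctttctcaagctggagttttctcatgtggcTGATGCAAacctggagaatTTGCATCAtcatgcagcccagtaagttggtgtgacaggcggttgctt

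Mt1 held 1 metal response element match, 23 to 17 bases before the start. Sod1 held 1 antioxidant response element match on the opposite strand. Slc7a11 held 2 amino acid response element matches facing each other, and Gpx1 and Txn1 held none of the 3. Among 32851 windows of the same length, 21.4% held a metal, 10.2% an antioxidant and 3.45% an amino acid response element match. Over the 8 genes with a window, 3 held a metal (Mt1, Mt2 and Gclm), 3 an antioxidant (Mt2, Sod1 and Gclm) and 1 an amino acid response element match. In Gclm, 1 of the metal matches overlapped the antioxidant match. A match is a description of letters in the window, not a site.

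The alcohol-fed arrays were first set against the pair-fed arrays, so that the pool dropped out. None of the 8 tested genes passed limma's test at an adjusted p under 0.05, against a background of 0% of 20876 probes. At an unadjusted p under 0.05 limma gave 0 of the 8 genes, where the background was 4.22%. The largest differences were those of Mt1, higher by 1.10 on the log2 scale, and Slc7a11, at -1.27. For all 8 genes limma's adjusted p was 0.9996, and the ranges of the 2 groups overlapped for all 9 genes, while 0.115% of probes had groups that did not overlap.

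**Figure D1:**
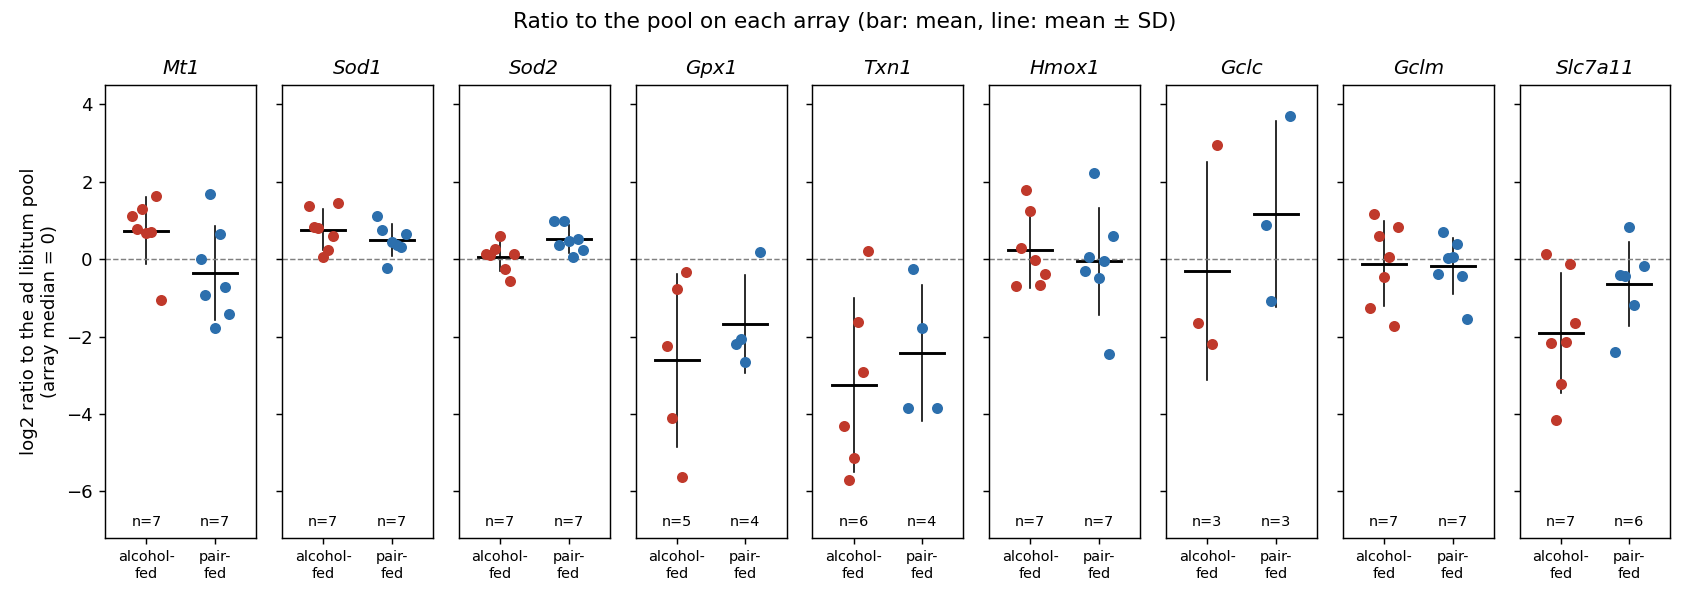
Log2 ratio to the ad libitum pool on each array (vertical axis, array median at 0) for the 9 genes, alcohol-fed arrays in red beside pair-fed arrays in blue; thick bars are means and thin lines mean ± SD. Sod1 and Sod2 have the tightest points, Gpx1, Txn1 and Slc7a11 spread over several log2 units, and Gclc has only 3 points in each group.

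Mt1, a widely expressed metallothionein, had a median log2 ratio of 0.778 in the alcohol-fed group (lowest -1.055, highest 1.63) and of -0.733 in the pair-fed group (lowest -1.79, highest 1.67). In the alcohol-fed group 6 of 7 arrays lay above the pool, and in the pair-fed group 2 of 7 did. The ranges overlapped, because alcohol-fed array 7 lay among the low values and pair-fed array 3 had the highest value of all 14. The difference of 1.10 ± 0.54 (limma SE) corresponds to 2.14-fold, with a 95% interval from 0.967 to 4.73. The exact two-sided permutation test gave p = 0.0793 over 3432 regroupings, with 6 of 7 alcohol-fed arrays above the pair-fed median.

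The dismutases showed the smallest spread. Sod1, the cytosolic copper-zinc enzyme, had a median of 0.791 in alcohol-fed arrays (0.062 to 1.45) and of 0.451 in pair-fed arrays (-0.232 to 1.12). Sod2, the manganese enzyme of mitochondria, had a median of 0.136 in alcohol-fed arrays (-0.573 to 0.585) and of 0.458 in pair-fed arrays (0.0595 to 0.994). The residual SD was 0.473 for Sod1 and 0.365 for Sod2, at the 1.94 percentile of all tested probes for Sod1 and the 0.192 percentile for Sod2. The differences (alcohol-fed minus pair-fed) had opposite signs, 0.27 ± 0.36 for Sod1 and -0.46 ± 0.33 for Sod2 (limma SE). For Sod2 the exact permutation test gave p = 0.0379, the only 1 of the 8 tested genes under 0.05 and not adjusted over any list, whereas limma's unadjusted p was 0.181. Only 1 of 7 alcohol-fed arrays lay above the pair-fed median of Sod2. The 95% interval of the difference ran from 0.449-fold to 1.18-fold for Sod2 and from 0.72-fold to 2.03-fold for Sod1.

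Of the peroxide-removing genes, Gpx1 encodes the main cytosolic glutathione peroxidase and Txn1 cytosolic thioredoxin, which reduces protein disulphides and feeds the peroxiredoxins. Gpx1 stood at -2.25, -4.10, -0.768, -5.64 and -0.337 on alcohol-fed arrays 2 to 6 and at -2.19, -2.07, -2.66 and 0.185 on pair-fed arrays 2, 3, 4 and 7. Txn1 had a median of -3.62 on 6 alcohol-fed arrays (-5.71 to 0.201) and stood at -3.86, -0.246, -1.78 and -3.85 on pair-fed arrays 1, 2, 4 and 7. Values far below the pool and values near it occurred in both groups, and the ranges overlapped for each gene. The log2 difference was -0.94 ± 1.03 for Gpx1 and -0.81 ± 1.09 for Txn1 (limma SE). The exact permutation test gave p = 0.452 for Gpx1 and p = 0.557 for Txn1. Leaving out 1 alcohol-fed array moved the difference for Gpx1 between -1.51 (without array 6) and -0.18 (without array 5). For Txn1 it moved between -1.50 (without alcohol-fed 7) and -0.323 (without alcohol-fed 3). Without any 1 of its 4 pair-fed arrays with a value, neither gene had enough values for the test. How far the difference depends on single pair-fed values was therefore not tested. The intervals of Gpx1 and Txn1 were the widest of the set, from 0.112-fold to 2.44-fold for Gpx1 and from 0.112-fold to 2.90-fold for Txn1.

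Among the genes of glutathione supply, Slc7a11, the cystine-glutamate exchanger known as xCT, had a median of -2.14 in alcohol-fed arrays (-4.17 to 0.137) and of -0.428 on 6 pair-fed arrays (-2.40 to 0.826). Most alcohol-fed arrays lay below most pair-fed arrays, but alcohol-fed arrays 1 (0.137) and 6 (-0.121) stood near the pool and pair-fed array 1 (-2.40) far below it. The difference was -1.27 ± 0.68 (limma SE), 0.414-fold with an interval from 0.152-fold to 1.13-fold, and the exact permutation test gave p = 0.121. Gclm, the modifier subunit, had medians of 0.051 in alcohol-fed arrays (-1.72 to 1.17) and 0.037 in pair-fed arrays (-1.54 to 0.703), a difference of 0.05 ± 0.50 (limma SE). Gclc, the catalytic subunit, had values of -1.65, -2.19 and 2.94 on alcohol-fed arrays 2, 5 and 6 and of 0.877, -1.07 and 3.69 on pair-fed arrays 2, 3 and 7. Those 6 values cover both signs in each group. Hmox1, which opens the haem ring and is a classic stress-induced gene, had medians of -0.029 in alcohol-fed arrays (-0.691 to 1.80) and -0.0585 in pair-fed arrays (-2.46 to 2.22). Its difference was 0.28 ± 0.60 (limma SE).

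**Figure D2:**
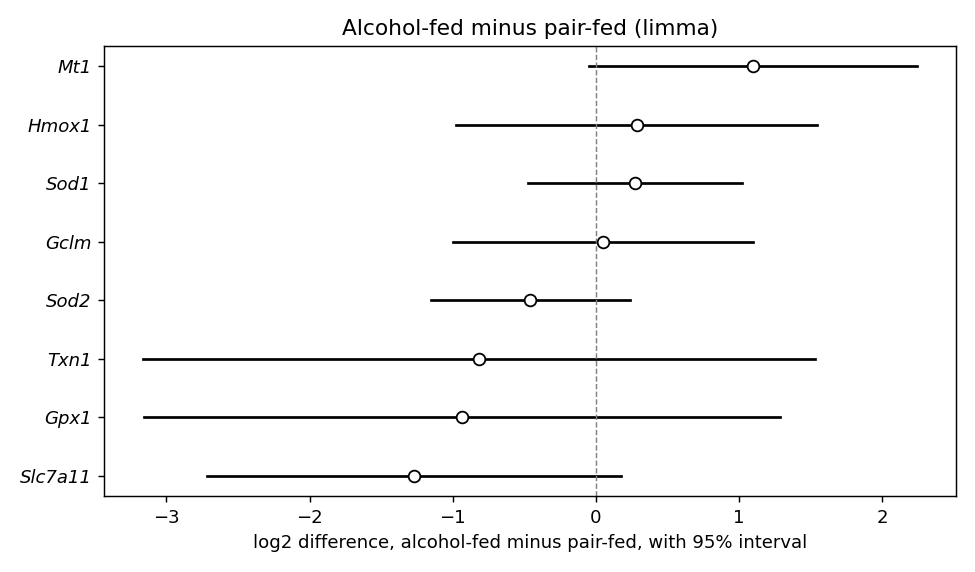
Log2 difference, alcohol-fed minus pair-fed (horizontal axis), with 95% limma intervals (lines) for the 8 tested genes (rows), in order of the difference. Every interval covers 0, from Mt1 at 1.10 at the top to Slc7a11 at -1.27 at the bottom.

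Set against the pool of freely fed controls, 4 of the 8 genes passed in the alcohol-fed group and 0 in the pair-fed group. Sod1 rose in the alcohol-fed group, and Txn1, Gpx1 and Slc7a11 fell. Over all probes 8.02% were called higher and 15.5% lower in the alcohol-fed group, and 7.86% and 13.5% in the pair-fed group. Fewer cells of a type that expresses a gene and less RNA of it per cell cannot be told apart in such samples. The pool counts as 1 control sample, and the test does not include how far such controls vary. Samples were always in Cy5, and a difference between the dyes cannot be told apart from one between a group and the pool. Both groups share the pool.

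Txn1 lay farthest from the pool, with a mean log2 ratio of -3.25 ± 0.69 (limma SE) in the alcohol-fed group and of -2.43 ± 0.85 in the pair-fed group. These correspond to 9.50-fold and 5.40-fold below the pool, with limma adjusted p = 0.00489 in the alcohol-fed group and 0.0549 in the pair-fed group. In the alcohol-fed group 5 of 6 arrays lay below the pool, and in the pair-fed group 4 of 4 did. Gpx1 fell by 2.62 ± 0.68 in the alcohol-fed group, below the pool on 5 of 5 arrays (adjusted p = 0.0163). In the pair-fed group it stood at -1.68 ± 0.77, below on 3 of 4 arrays (adjusted p = 0.133). Slc7a11 fell by 1.91 ± 0.46 in the alcohol-fed group, below the pool on 6 of 7 arrays (adjusted p = 0.00821). Its pair-fed value was -0.63 ± 0.50, below on 5 of 6 arrays (adjusted p = 0.381).

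Sod1 rose by 0.76 ± 0.25 (limma SE) in the alcohol-fed group, 1.69-fold over the pool, above it on 7 of 7 arrays (adjusted p = 0.0365), and stood at 0.49 ± 0.25 in the pair-fed group, above on 6 of 7 (adjusted p = 0.172). Sod2 stood at 0.06 ± 0.23 in the alcohol-fed group (adjusted p = 0.872) and at 0.52 ± 0.23 in the pair-fed group, where 7 of 7 arrays lay above the pool (adjusted p = 0.118). Mt1 was at 0.73 ± 0.39 in the alcohol-fed group (adjusted p = 0.168) and at -0.36 ± 0.39 in the pair-fed group (adjusted p = 0.522). Gclm stood at -0.12 ± 0.35 in the alcohol-fed and -0.17 ± 0.35 in the pair-fed group, and Hmox1 at 0.22 ± 0.42 in the alcohol-fed and -0.06 ± 0.42 in the pair-fed group. Their adjusted p ran from 0.723 to 0.933, all by limma. That 4 genes passed in one diet group and not in the other does not show that the groups differ, and the test of that difference, given above, passed for none of them.

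The call of Sod1 ended without any 1 of alcohol-fed arrays 1, 2, 3, 6 and 7 (limma adjusted p 0.0511 to 0.103), and that of Gpx1 without alcohol-fed array 3 (0.0595) or 5 (0.0573). The mean of Gpx1, -2.62 on 5 arrays, was -1.86 without alcohol-fed array 5, which had its lowest value, and -3.19 without array 6, which had its highest. Txn1 passed in the pair-fed group without alcohol-fed array 3 (0.0463) or 7 (0.0286). Leaving out pair-fed array 2 along with alcohol-fed arrays 2 and 3, the 3 with the highest medians before centring and an alternative chosen after the data were seen, Slc7a11 stood at -1.40 ± 0.52 (adjusted p = 0.085), Sod1 at 0.74 ± 0.33 (0.136), and Txn1 and Gpx1 had too few values for the test, so that 0 genes passed.

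**Figure D3:**
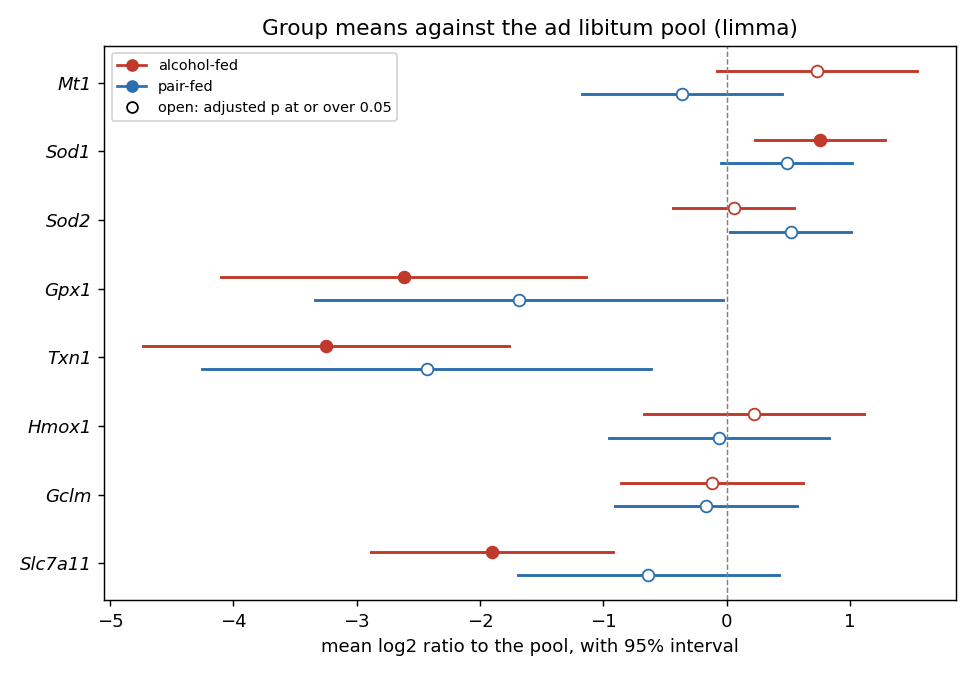
Mean log2 ratio to the pool (horizontal axis) with 95% limma intervals for the 8 tested genes (rows), alcohol-fed in red above pair-fed in blue; filled points have an adjusted p under 0.05. The 4 filled points are all alcohol-fed, Sod1 right of 0 and Gpx1, Txn1 and Slc7a11 left of it, and for each gene the 2 intervals overlap.

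The genes that fell were those with placeholders. Of the 5 tested genes with a value on all 14 arrays (Mt1, Sod1, Sod2, Hmox1 and Gclm), 1 was called higher and 0 lower in the alcohol-fed group. Of the 3 with placeholders, Txn1 (1 alcohol-fed and 3 pair-fed arrays), Gpx1 (2 alcohol-fed and 3 pair-fed) and Slc7a11 (1 pair-fed), 0 were called higher and 3 lower. The same split ran through the whole array. Among 14666 probes without a placeholder 10.7% were called higher and 10.7% lower in the alcohol-fed group, and 10.6% and 10.6% in the pair-fed group. Among 3705 probes with 1 placeholder, as for Slc7a11, 2.4% were called higher and 21.8% lower in the alcohol-fed group. In the pair-fed group these shares were 1.81% and 18.4%. Among 2505 probes with 2 or more placeholders 0.479% were called higher and 34.4% lower in the alcohol-fed group, and 0.679% and 23% in the pair-fed group. With 4 or 5 placeholders, as for Txn1 and Gpx1, 34.2% of 552 probes were called lower in the alcohol-fed group and 21.7% in the pair-fed group.

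With placeholders kept at their deposited values, the alcohol-fed mean was -2.76 ± 0.70 for Txn1 (limma adjusted p = 0.0113) and -1.83 ± 0.59 for Gpx1 (0.0365). In the pair-fed group the same setting gave -1.44 ± 0.70 for Txn1 and -1.06 ± 0.59 for Gpx1. What placeholders stand for is unstated, and their part in these falls was not tested. Gclc had the most, on 4 arrays of each group, and alcohol-fed array 1 and pair-fed arrays 5 and 6 were placeholders for Gclc, Txn1 and Gpx1 alike.

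**Figure D4:**
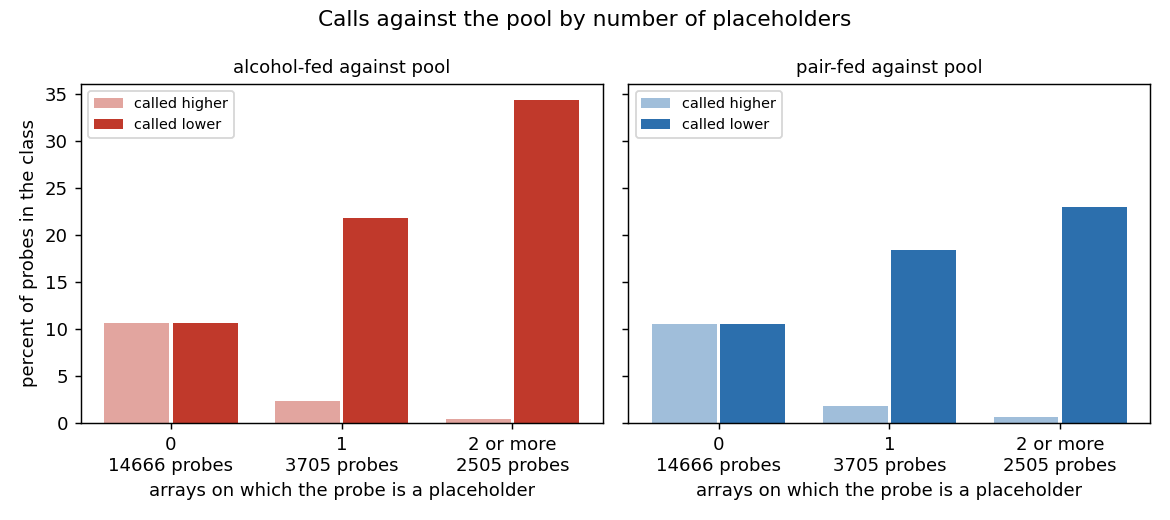
Percent of probes called higher (pale bars) and lower (dark bars) than the pool, for probes that were a placeholder on 0, 1, or 2 or more of the 14 arrays (horizontal axis), alcohol-fed at left and pair-fed at right. Higher and lower calls are equal at 10.7% in alcohol-fed arrays without placeholders, whereas lower calls reach 34.4% at 2 or more.

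A further 115 genes of the same pathways, in 7 lists, were counted beside the members, and 97 of them were tested. Between the diets 0 of 97 passed. Against the pool 5 rose and 15 fell in the alcohol-fed group, and in the pair-fed group 8 rose, 10 fell and 1 gene had a probe called in each direction. As shares of the 97 genes these were 5.15% higher and 15.5% lower in the alcohol-fed group, beside 8.02% and 15.5% of all probes, and 8.25% higher and 10.3% lower in the pair-fed group, beside 7.86% and 13.5% of all probes. These shares lay near or under the background, so the counts are no result about the pathway genes as a whole. The median log2 value of these genes was 0.10 in the alcohol-fed group and 0.04 in the pair-fed group, beside 0.007 and -0.03 over all probes.

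A list named for superoxide, hydrogen peroxide and quinone enzymes also held genes of haem breakdown (Blvra, Blvrb) and of NADPH supply (Pgd, Idh1). Of its 12 tested genes, 0 rose and 7 fell in the alcohol-fed group (58.3% lower, beside 15.5% of all probes). In the pair-fed group 0 rose and 3 fell, Cat, Blvra and Idh1 (25% lower, beside 13.5%). The list itself was not tested. Over all probes, lower calls in the alcohol-fed group ran from 10.7% without a placeholder to 34.4% with 2 or more. The placeholders of the listed genes were not counted, and their part in these falls was not tested. Catalase gene Cat, which splits hydrogen peroxide in peroxisomes, stood at -2.69 ± 0.58 in the alcohol-fed group and at -3.00 ± 0.58 in the pair-fed group (limma adjusted p = 0.00401 for alcohol-fed and 0.00194 for pair-fed). The extracellular dismutase Sod3 fell by 2.47 ± 0.54 and the biliverdin reductase Blvrb fell by 1.64 ± 0.32 in the alcohol-fed group. Neither was called in the pair-fed group, where another biliverdin reductase, Blvra, fell by 3.59 ± 0.93. Sod3 also had the smallest p of these genes between the diets, at -2.58 ± 0.76, with an unadjusted p of 0.00326 and no call after adjustment. Of 7 other glutathione enzymes and peroxidases, 1 rose and 2 fell in the alcohol-fed group and 0 rose and 1 fell in the pair-fed group. Gpx3, the plasma peroxidase, was at -2.05 ± 0.61 in the alcohol-fed group and -3.09 ± 0.61 in the pair-fed group, both falls. Gpx4, which reduces lipid peroxides, fell by 1.66 ± 0.51 in the alcohol-fed group. In the pair-fed group Gpx4 stood at -1.31 ± 0.51 and was not called (limma adjusted p = 0.0813).

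In the other lists calls were few, 0 to 3 genes in either direction, and are to be read against the same shares of all probes (8.02% higher and 15.5% lower in the alcohol-fed group, 7.86% and 13.5% in the pair-fed group). Of 20 glutathione transferases, which conjugate glutathione to reactive compounds, 2 rose and 1 fell in the alcohol-fed group and 1 rose and 3 fell in the pair-fed group. Gstm6 fell in both, to -1.26 ± 0.26 in alcohol-fed and -0.97 ± 0.26 in pair-fed arrays. Of 19 genes of the thioredoxin, peroxiredoxin and glutaredoxin system, 0 rose and 2 fell in the alcohol-fed group and 2 rose and 1 fell in the pair-fed group. The thioredoxin-like gene Txnl1 fell in both groups, to -1.69 ± 0.47 in alcohol-fed and -1.71 ± 0.47 in pair-fed arrays, and Txnip, the inhibitor of thioredoxin, fell by 1.65 ± 0.48 in the alcohol-fed group, while mitochondrial Txn2 stood at 0.76 ± 0.33 there and did not pass.

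Of 11 genes of Nrf2 regulation, 2 rose and 0 fell in the alcohol-fed group, and in the pair-fed group 2 rose, 0 fell and Nfe2 had a probe called in each direction. Nfe2 was also 1 of the 2 that rose in the alcohol-fed group, at 1.26 ± 0.38 on 1 probe. Its other probe stood at -0.819 there and was not called. Sqstm1, the autophagy receptor that binds Keap1, rose in both groups, by 0.84 ± 0.24 in alcohol-fed and 0.70 ± 0.24 in pair-fed arrays. Mafg, a small Maf partner of Nrf2, rose by 1.6 ± 0.34 in the pair-fed group, and its difference between the diets was -1.21 ± 0.46 (limma unadjusted p = 0.0188, not called). Of 22 metal-handling genes 0 rose and 3 fell in the alcohol-fed group (13.6% lower, beside 15.5% of all probes) and 2 rose and 2 fell in the pair-fed group. The copper chaperone Atox1 fell by 4.06 ± 0.68 and the iron exporter Slc40a1 fell by 1.41 ± 0.31 in the alcohol-fed group. The difference of Atox1 between the diets was -2.15 ± 0.92 (limma unadjusted p = 0.0342, not called). The iron importer Slc11a2 rose by 1.51 ± 0.37 in the pair-fed group. The brain metallothionein Mt3 differed between the diets by -0.70 ± 0.42, opposite in sign to Mt1, with no call. Of 6 transport partners of Slc7a11 and related carriers 0 passed in the alcohol-fed group and 1 rose in the pair-fed group, and Slc3a2, the heavy chain of the exchanger, stood at 0.85 ± 0.53 in the alcohol-fed group.

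Markers of cell types were counted in the same comparisons. Over all probes 15.5% were called lower in the alcohol-fed and 13.5% in the pair-fed group. The shares of markers are of genes, and a gene counted as lower if any of its probes was called lower and none higher. Genes with several probes have more chances of a call, so these shares and those of probes are not like for like. The share of markers called lower was above that of all probes for hepatocytes (46.2% in each group), erythroid cells (40% in each) and leukocytes (55.6% in each). It was near that of all probes for trophoblast (16.7% in each, with 50% called higher in the alcohol-fed group beside 8.02% of all probes). For neurons it was 10% in the alcohol-fed and 0% in the pair-fed group. In the pair-fed group Gad2 was called in both directions and so was not counted. Of 13 fetal hepatocyte markers 0 rose and 6 fell in the alcohol-fed group and 1 rose and 6 fell in the pair-fed group. Their mean log2 ratio per array was -1.58 to -0.377 in alcohol-fed and -0.893 to -0.532 in pair-fed arrays. Trf, counted as a fall in the pair-fed group, stood there at -1.9 on 1 probe and at -0.986 and 0.405 on the others. Of 10 erythroid markers 0 rose and 4 fell in each group (-2.06 to -0.94 in alcohol-fed and -2.49 to -0.549 in pair-fed arrays). Hba-x and Tfrc fell on 1 probe only. Hba-x stood at -3.56 on that probe and 0.429 on the other in the alcohol-fed group, and at -2.84 and 0.133 in the pair-fed group. Tfrc stood at -2.99 and 0.12 in the alcohol-fed and at -2.34 and -0.0274 in the pair-fed group. Gad2, the neuronal fall below, stood at -3.32 and 0.128 in the alcohol-fed group, and at -4.23 and 0.889 in the pair-fed group. Of 9 leukocyte markers 0 rose and 5 fell in each (-1.44 to -0.553 in alcohol-fed and -2.02 to -0.233 in pair-fed arrays). Of 6 trophoblast markers 3 rose and 1 fell in the alcohol-fed group and 1 rose and 1 fell in the pair-fed group (-0.709 to 0.675 in alcohol-fed and -0.763 to 0.732 in pair-fed arrays). Psg23, counted as risen in each group, stood at 1.4 on 1 probe and 0.0821 on the other in the alcohol-fed group. In the pair-fed group the same probes of Psg23 stood at 0.917 and 0.59. Of 10 neuronal markers 0 rose and 1 fell in the alcohol-fed group, and 1 rose and 1 was called both ways in the pair-fed group (-0.351 to 0.335 in alcohol-fed and -0.255 to 0.273 in pair-fed arrays). Between the diets 0 markers of any list passed. The placeholders of the markers were not counted, and their part in the calls against the pool was not tested. The part of these cell types in the ratios of the antioxidant genes was not tested.

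Across the 14 arrays pairs of members differed in how they moved. Mt1 and Hmox1, both stress-induced, had r = 0.408 (Spearman 0.266, n = 14 arrays), and Mt1 and Sod1 had r = -0.218 (Spearman -0.174). The cystine exchanger and thioredoxin gave r = 0.572 over the 10 arrays with both values (Spearman 0.648), while Txn1 and Hmox1 gave r = -0.702 (Spearman -0.648). All points share the pool and each array's own hybridisation, so these values are descriptions. Of 11469 named probes with values on all arrays, those most like Mt1 were Ttn (r = 0.900) and 4930402K13Rik (r = 0.897). For Gclm they were Dmac2 (r = 0.943) and Igf1r (r = 0.919), and for Hmox1 Paip2b (r = 0.911) and Zcchc4 (r = 0.887).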

How the data were processed

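Total RNA (Ambion miRNA kit) was labelled with Cy3 and Cy5 by a Genisphere kit, per the labels' protocols. The deposited values are log2 ratios, 1 per probe and array, in a table of 21582 probes. Log2 is read from the limits of the deposited values, 16.61 and -9.966 (as linear ratios, 100025 and 0.0009999), and from the 2 channels. Direction is not stated, and array medians off 0 show that not all arrays were centred. What the authors did before deposit (scanner, background, normalization) is not given here, nor is signal strength, and the number of arrays limits the precision.

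Placeholders (exact 0 and 16.61) were set to missing and each array was centred on its median. The 20876 probes with values on 4 or more arrays per group entered 1 limma fit of all 14 arrays (limma 3.58.1, R 4.3.3, lmFit and eBayes; two-sided, Benjamini-Hochberg over all probes, call at an adjusted p under 0.05), between the groups and for each group mean against 0. Errors are limma standard errors from 1 variance per probe over both groups. Exact two-sided permutation tests were run for single genes. The highest share of identical values between 2 arrays was 0.287%, which is a check for duplicated data only. Each array was counted as 1 replicate, but this share cannot tell separate animals or litters from technical repeats.

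Symbols come from the platform annotation (16635 probes with 1 symbol, 113 with several, 4834 with none), of which 15957 matched RefSeq gene numbers and 0 needed an update. Of the pathway lists up to 3 genes with the smallest p per comparison may be named. The members and lists were chosen with earlier results of these data known. Alternatives were other scalings, filters, weights, a replicate block and leaving out arrays.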

Additional observations from a re-analysis of the deposited data

Results flagged for a closer look

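For Mt1, alcohol-fed array 7 stood apart from its group, at a log2 ratio of -1.055 where the other 6 alcohol-fed arrays lay at 0.677 to 1.63. Its gap to the nearest array was 0.644 of the group's range, above Dixon's 95% critical value for 7 samples. Of 16 groups examined this was the only 1, and chance flags about 1 in 20 groups. Without this array the difference in Mt1 between alcohol-fed and pair-fed arrays was 1.39 ± 0.52 (limma SE), in place of 1.10 ± 0.54, with no call in either case.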

How the results depend on the processing

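Between alcohol-fed and pair-fed arrays limma called 0 probes and 0 members in all 27 settings, the reported one included, and Mt1 was higher in alcohol-fed arrays in each (0.813 to 1.44). Against the pool the count of members called in the alcohol-fed group, 4, was also 4 with other scalings, array weights, placeholders kept, or a filter of 2 arrays. It was 1 with values on all 14 arrays required, where Gpx1, Txn1 and Slc7a11 were not tested, and 2 without the 2 arrays of most placeholders (pair-fed 6 and 7), where Gpx1 and Txn1 were not tested. It was 0, with 2816 probes called in place of 4913, without alcohol-fed 2 and 3 and pair-fed 2, which was chosen after seeing the data. Leaving out 1 array gave 2 to 4 members in the alcohol-fed group (2 without alcohol-fed 3, or without pair-fed 2, 4 or 7, where Gpx1 and Txn1 were not tested) and 0 to 1 in the pair-fed group, and Txn1 was called in the alcohol-fed group wherever tested. Whether equal replicate numbers pair the arrays is unstated. Same-numbered arrays deviated together at r = -0.0963 to 0.234, best with their own number in 2 of 7, which cannot decide it. With the replicate block 2 members, Txn1 and Slc7a11, were called in the alcohol-fed group, Sod1 stood at 0.76 ± 0.26 (adjusted p = 0.0586), and the mean of Gpx1 could not be estimated, while its difference between the diets was -0.0663. The cause of the change for Sod1 was not tested.

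Gclm and Hmox1 lay near 0 and changed sign, never with a call. In the alcohol-fed group against the pool Gclm was 0.00486 as deposited, 0.0995 after quantile scaling and 0.194 with array weights. In the pair-fed group Hmox1 was 0.0473 as deposited, 0.0547 after quantile scaling, 0.00412 after scale normalization and 0.0417 with array weights. Without the 2 arrays of most placeholders the difference alcohol-fed minus pair-fed was -0.0626 for Hmox1 and -0.279 for Gclm, and the pair-fed value was 0.286 for Hmox1 and 0.161 for Gclm. Without alcohol-fed 2 and 3 and pair-fed 2 the differences were -0.0249 for Hmox1 and -0.206 for Gclm, and Hmox1 in the alcohol-fed group was -0.106. Leaving out 1 array, Hmox1 ran from -0.115 to 0.665 for the difference, -0.0382 to 0.376 for alcohol-fed and -0.441 to 0.339 for pair-fed, Gclm from -0.178 to 0.317 for the difference, -0.334 to 0.149 for alcohol-fed and -0.313 to 0.0601 for pair-fed, and Sod2 in the alcohol-fed group from -0.0282 to 0.165.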
